A study of Rattus norvegicus with 3 samples.

Results

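Of the 18425 genes measured in the postnatal rat retina, 41 belong to the Wnt pathway as listed here: its ligands, the enzymes that mature them, receptors, inhibitors, intracellular components and feedback targets, together with the Norrin ligand system. The genes were taken by symbol from a list of 42, and the listed gene without a row was not analysed here. The list was chosen with earlier results of these data known. Wild-type Sprague Dawley rats received 1 µl into the vitreous at postnatal day 1 (P1), and retinas were taken at P4. The Buffer library came from retinas injected with citrate buffer of pH 4.5, the Saline library from retinas injected with saline, and the STZ library from retinas injected with 10 µg of streptozotocin, a nitrosourea sugar that alkylates DNA, which had been prepared in the citrate buffer. There was 1 library for each injection. How many animals or eyes were pooled in a library is not given in the sources used here. For its tests of retinal function and form the study put STZ in one eye and buffer in the other eye of each animal, and whether the Buffer and STZ libraries come from such pairs of eyes is not given. Treatment and dissection cannot be told apart in any comparison, nor can differences between animals where the libraries do not share them, and no difference between libraries has a replicate check or a p-value.

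The libraries held 21977843 to 22031249 estimated reads. Markers of other cells differed between them. For Buffer, Saline and STZ in this order, the summed FPKM of 13 lens markers was 17.8, 48.7 and 287.6, and that of 10 microglia markers was 55.3, 67.7 and 166.4. For 9 ciliary and iris epithelium markers the sum was 282.1, 436.5 and 275.4, with Aldh1a1, Gja1 and Wfdc1 past the upper threshold in Saline against Buffer. For 10 endothelial markers it was 127.7, 136.8 and 88.9, mostly from Kdr, and the other 9 summed to 21.8, 19.4 and 8.69. For 11 retinal progenitor markers (Sfrp2 among them) the sum was 1312, 1316 and 1003, and for 10 early Müller glia markers 1234, 1264 and 1066. The sum was 14.82, 13.43 and 7.91 for 7 pericyte markers and 14.66, 16.35 and 7.59 for 6 astrocyte markers. Neuron markers were highest in STZ. Their sums were 476.5, 476.2 and 520.5 (amacrine), 199.7, 184.9 and 224.2 (ganglion) and 1053, 983.8 and 1190 (photoreceptor precursor). Pax6 is in both the progenitor and the amacrine list. The retinal genes Crx, Nrl and Rax were present in every library, and the lowest of their levels was the FPKM of 103.25 of Rax in STZ.

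Wnt proteins are lipid-modified ligands. They bind Frizzled receptors together with the co-receptors Lrp5 or Lrp6, which keeps β-catenin from being degraded and lets it act with Lef1 and the Tcf proteins on target genes. In the eye the pathway is known for its activity at the ciliary margin and in vessels. Norrin, encoded by Ndp, is not a Wnt but binds Fzd4 with Lrp5 and Tspan12, and it is known for its role in the growth of the retinal vessels.

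The promoters of 3 genes are shown. Axin2 and Nkd1 are feedback targets of the pathway and the members whose window holds the longer Tcf/Lef form described here, and Ndp is the gene with the largest fold. Each window runs from 250 bases before to 50 bases after the start of the gene in RefSeq, on the build GRCr8, 5′ to 3′ on the strand of the gene. Axin2 lies on the plus strand at chr10:94398535-94398834, Nkd1 on the minus strand at chr19:34722797-34723096 and Ndp on the plus strand at chrX:8379319-8379618. Capitals mark the Tcf/Lef core CTTTG on either strand, and the longer form CTTTGAT, which contains the core.
Axin2: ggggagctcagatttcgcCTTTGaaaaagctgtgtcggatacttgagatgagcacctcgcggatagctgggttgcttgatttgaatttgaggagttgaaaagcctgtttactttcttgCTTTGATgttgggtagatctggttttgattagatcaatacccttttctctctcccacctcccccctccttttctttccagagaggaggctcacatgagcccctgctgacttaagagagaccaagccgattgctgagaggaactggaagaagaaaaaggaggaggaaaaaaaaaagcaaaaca
Nkd1: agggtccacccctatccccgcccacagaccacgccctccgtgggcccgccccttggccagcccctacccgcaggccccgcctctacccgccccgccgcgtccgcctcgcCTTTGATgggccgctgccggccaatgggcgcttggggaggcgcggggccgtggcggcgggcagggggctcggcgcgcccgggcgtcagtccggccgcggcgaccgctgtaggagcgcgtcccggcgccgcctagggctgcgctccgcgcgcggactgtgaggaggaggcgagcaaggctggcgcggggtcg
Ndp: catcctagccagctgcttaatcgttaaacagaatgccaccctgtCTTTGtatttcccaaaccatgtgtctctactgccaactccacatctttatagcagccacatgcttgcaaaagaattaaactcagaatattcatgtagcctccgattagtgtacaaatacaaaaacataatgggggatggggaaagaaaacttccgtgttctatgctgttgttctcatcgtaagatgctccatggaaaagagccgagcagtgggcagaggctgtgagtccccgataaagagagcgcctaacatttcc
The longer form was present once in Axin2 and once in Nkd1 but not in Ndp. Windows were found for 30 of the 41 genes, and the longer form was in 2 of these 30, Axin2 and Nkd1, against 3.63% of all 33469 rat windows. The core was in 16 of the 30 (53.3%), close to the 53.8% of all windows. The windows of the Wnt genes had a median GC content of 65.2%, against 51.7% over all windows. A match is a description of letters and does not show binding.

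Fold changes were computed as (FPKM + 1)/(FPKM + 1), with 1.54 and 0.65 as the thresholds, where FPKM is a read level scaled to gene length and library size. Because of the added 1, a gene with a low level has a fold nearer to 1 than its levels alone would give. A read ratio divides the fraction of all reads that a gene took in one library by that in the other, with an exact 95% Clopper-Pearson interval. Since reads were not tagged by molecule and are not independent, this interval covers counting error only, and it compares libraries rather than conditions. In STZ against Buffer, 1 of the 41 genes rose past 1.54, Ndp, where 2.25% of all genes did, and 1 fell below 0.65, Fzd3, where 1.04% did. Against Saline, Ndp rose again and Fzd3 and Wls fell, 1 and 2 of 41, beside 2.04% and 1.75% of all genes. Both comparisons share the STZ library. Between the controls Wls rose in Saline and no listed gene fell, beside 1.00% and 0.429% of all genes. A count of 1 is 2.44% of the list and a count of 2 is 4.88%. With so few genes past the thresholds, no difference between these shares and those of all genes can be read.

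Smaller differences were more common and mostly in the direction of lower levels in STZ. The read ratio interval lay below 1 in STZ against Buffer for 16 of the 41 genes (39.0%), where this held for 15.5% of all genes. It lay above 1 for 3 of 41, Ndp, Lgr5 and Ctnnb1 (7.32%), where it did for 21.7% of all genes. Against Saline the interval was below 1 for 20 of 41 (48.8%) and above 1 for 3, Ndp, Tspan12 and Ctnnb1, beside 19.5% and 22.1% of all genes. In Saline against Buffer it was above 1 for 11 of 41 and below 1 for 5, beside 13.3% and 9.81%. Among those 11 were Wnt11 and Dkk1, with at most 14 reads in a library. The FPKM in STZ was below that of both controls for 21 of the 41 genes (51.2%), against 32.2% of all genes, and above both for 7 (17.1%), against 41.5%. These counts describe 3 libraries, and a gene with many reads passes the interval rule at a small ratio.

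Over all 41 genes the median log2 fold of STZ was -0.02 to Buffer and -0.21 to Saline, and that of Saline to Buffer was 0.06, where all genes had medians of 0.02, 0.00 and 0.01. Of the 41 genes, 7 had a mean under 10 reads over the 3 libraries, too few for a fold to be read. Over the other 34 the medians were -0.13, -0.23 and 0.06, beside 0.03, 0.01 and 0.02 for the 14885 genes that passed the same minimum. The list median in STZ against Buffer thus depended on the 7 weakest genes.

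**Figure D1:**
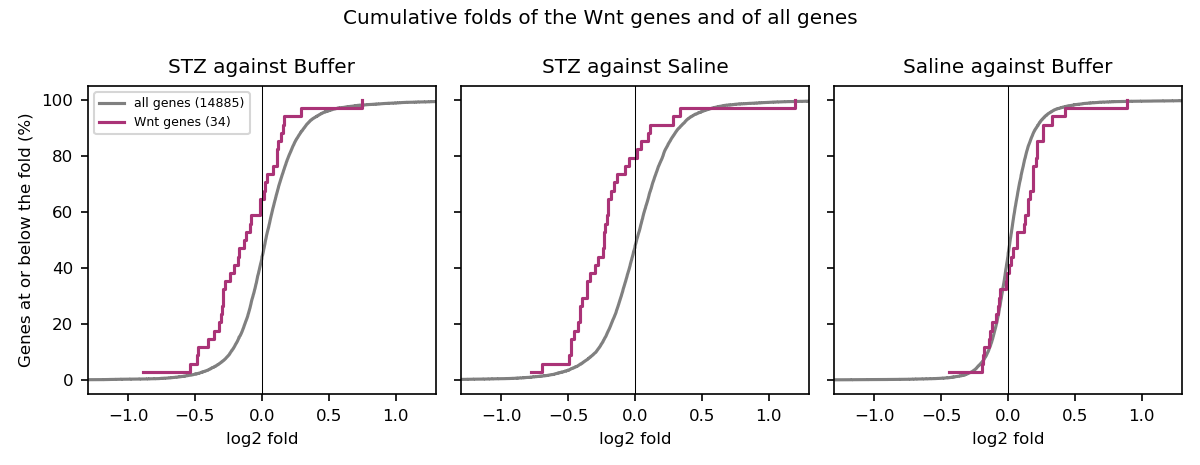
Cumulative share of genes, in percent, at or below each log2 fold, for the 34 Wnt genes with a mean of at least 10 reads (purple) and all 14885 genes with that minimum (grey), in the 3 comparisons. In both STZ comparisons the purple line lies left of the grey line over most of its length, with medians of -0.13 and -0.23, and in Saline against Buffer it lies right of the grey line in its upper part, with a median of 0.06.

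**Figure D2:**
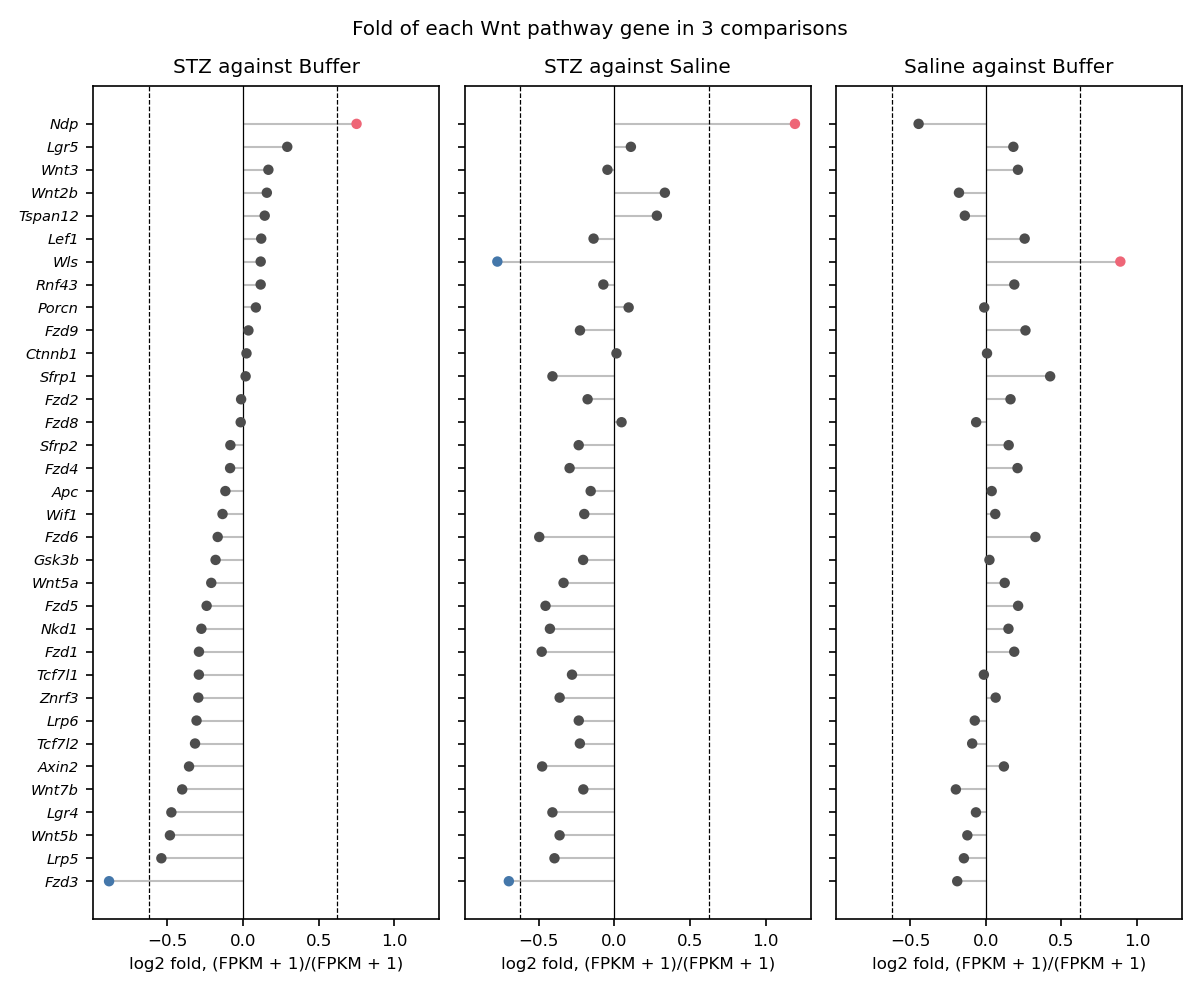
Log2 fold of the same 34 genes in the 3 comparisons, ordered by that of STZ to Buffer, with dashed lines at the thresholds of 1.54 and 0.65. Red points passed the upper and blue points the lower threshold: Ndp and Fzd3 in both STZ comparisons, and Wls in those with Saline.

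Wnt ligands were weakly expressed. The FPKM of the 8 Wnt genes summed to 18.3 (Buffer), 17.3 (Saline) and 14.4 (STZ). Wnt7b was the most abundant in every library, with an FPKM of 8.08, 6.92 and 5.87, from 144, 123 and 105 reads. Next were Wnt5b and Wnt5a, ligands best known for signaling that does not go through β-catenin. Wnt5b had 203, 186 and 134 reads. The controls lay close together and STZ lay below both, with read ratios of 0.659 against Buffer (interval 0.526 to 0.824) and 0.719 against Saline (0.571 to 0.902). For Wnt5a the reads were 309, 346 and 251, and the ratios were 0.811 (0.684 to 0.961) and 0.724 (0.613 to 0.854). Wnt7b was lower than in Buffer, at 0.728 (0.561 to 0.943), but its interval against Saline held 1, at 0.852 (upper bound 1.11). None of these 3 genes passed the fold threshold, with folds of 0.715 to 0.867 in the STZ comparisons.

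Wnt2b, a ligand of the ciliary margin, had 215, 193 and 214 reads, and every read ratio interval of this gene held 1. Its FPKM of 1.43, 1.15 and 1.71 did not follow the reads. The ratios of FPKM and of reads differed by more than 5% in STZ against Buffer for 6 of the 34 genes, Wnt2b, Wnt3, Fzd8, Rnf43, Gsk3b and Lef1, and for 7.82% of all genes with the same minimum. For these 6 genes the reads are given here as well. Wnt3 had 25, 40 and 39 reads, with no interval that excluded 1. Wnt4 and Wnt7a were each listed at 0, 1 and 1 reads and Wnt11 at 2, 14 and 6, so no statement on their change was possible. A count of 0 does not show that the transcript was absent. Of the 10 further Wnt ligand genes measured, which are no members of the list, 5 reached a mean of 10 reads, and their highest FPKM was 1.61.

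Ndp, the gene of Norrin, was highest in the STZ library. The Buffer library had an FPKM of 8.86, the Saline library 6.25 and the STZ library 15.6, with 330, 233 and 582 reads. STZ stood above both controls, and Saline was the lowest. The fold was 1.68 against Buffer and 2.29 against Saline, and the read ratios were 1.76 (1.54 to 2.02) and 2.49 (2.14 to 2.91). The controls also differed, with a ratio of 0.707 for Saline against Buffer (0.595 to 0.838), so the size of the rise depended on the control. The Saline count of this gene is fractional as deposited. In Buffer the FPKM of Ndp was 0.485 of the sum over the 8 Wnt genes and in Saline 0.361, and in STZ it was 1.08 of that sum. Müller glia are a known source of Norrin. The summed FPKM of their 10 early markers was 1234, 1264 and 1066, and Ndp was 0.718%, 0.495% and 1.46% of that sum. Dkk3 was the most abundant of these markers in every library. Their folds in STZ against Buffer ran from 0.653 (Sox9) to 1.05 (Glul). The part of Müller glia in the value of Ndp was not tested.

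None of the Norrin partners Tspan12, Fzd4 and Lrp5 passed the fold threshold. Tspan12, a tetraspanin that assists Fzd4, had 431, 384 and 478 reads and was highest in STZ, with a read ratio of 1.11 against Buffer (0.970 to 1.26) and 1.24 against Saline (1.08 to 1.42). Fzd4 had 132, 176 and 116 reads. Its level in STZ was below both controls, with an interval that held 1 against Buffer (0.678 to 1.13) and not against Saline (0.657, 0.516 to 0.836). Fzd4 was itself higher in Saline than in Buffer (1.33, 1.06 to 1.685). Lrp5 had an FPKM of 25.6, 23.1 and 17.3, and its read ratios were 0.675 (0.637 to 0.716) and 0.75 (0.706 to 0.796). In vessels Fzd4 acts in endothelial cells, and endothelial markers were lower in STZ. Of the 10 markers, 4 fell below 0.65 against Buffer and 4 against Saline, Cldn5 with 188, 154 and 37 reads and Cdh5 with 119, 114 and 28. Kdr made up most of the summed endothelial FPKM, with 105.92, 117.43 and 80.18, and the other 9 markers summed to 21.8, 19.4 and 8.69. Fzd4 was 0.713%, 0.885% and 0.9% of the sum with Kdr, and 4.18%, 6.25% and 9.21% of the sum without it, a choice made after seeing the data. In a whole retina, fewer cells of a type and less RNA per cell cannot be told apart, and the part of these cells in the values of Fzd4 and Lrp5 was not tested.

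**Figure D3:**
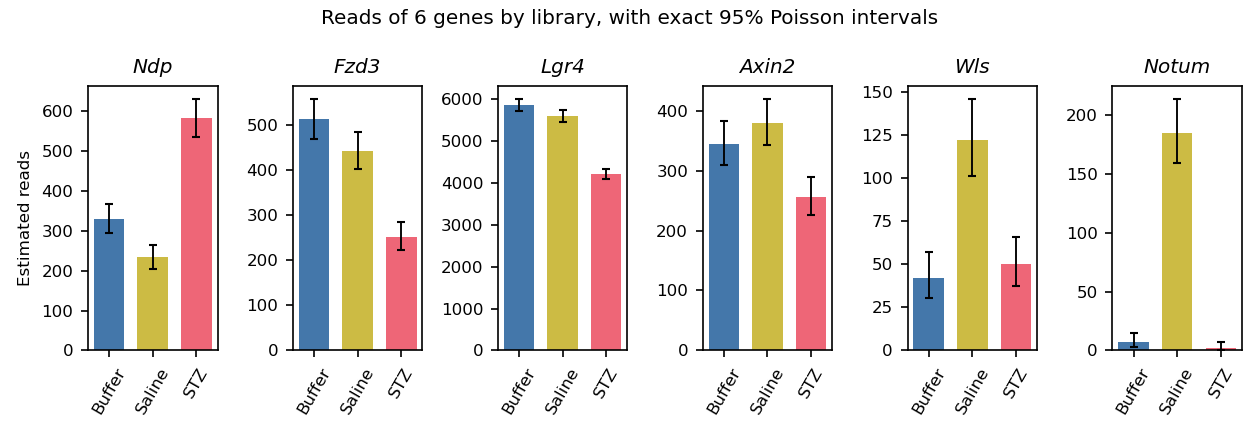
Estimated reads of Ndp, Fzd3, Lgr4, Axin2, Wls and Notum in the Buffer, Saline and STZ libraries. Error bars are exact 95% Poisson intervals, which cover counting error only, and the vertical scale differs between genes. Ndp is highest in STZ, Fzd3, Lgr4 and Axin2 are lowest there, and Wls and Notum are high in Saline only, with 122 and 185 reads.

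The genes of Wnt maturation differed from each other. Porcn, the acyltransferase that adds the lipid to Wnt proteins, had 403, 399 and 430 reads and an FPKM of 11.21, 11.13 and 11.95, with every read ratio interval holding 1. Wls, the carrier that brings the lipid-modified ligand to the cell surface, had 42 reads in Buffer, 122 in Saline and 50 in STZ. Saline stood apart, while Buffer and STZ differed by less than the counting error (ratio 1.19, 0.773 to 1.84). The fold was 1.85 in Saline against Buffer and 0.585 in STZ against Saline, with read ratios of 2.91 (2.03 to 4.23) and 0.409 (0.288 to 0.573). The fall of Wls against Saline was thus not seen against Buffer. Some ciliary and iris epithelium markers were also highest in Saline, Wfdc1 with 20, 258 and 12 reads and Gja1 with 169, 876 and 214. Of the 9 markers 3 were past the upper threshold in Saline against Buffer, while Cdon and Tgfb2 had folds of 1.02 there and Mab21l1, the most abundant, was highest in STZ with 7333, 7505 and 7912 reads. Past the upper threshold in Saline against Buffer were also 5 of 10 pigment epithelium markers, with folds of 1.77 (Mlana) to 3.28 (Pmel). The summed FPKM of all 10 was 212.3, 219.8 and 178.2, most of it from Rlbp1 and Ttr, which did not pass. Rlbp1, with 155.08, 145.77 and 121.83, is also among the early Müller glia markers, so this sum is not particular to pigment epithelium. The part of the ciliary, iris and pigment epithelium in the value of Wls was not tested.

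Among the receptors, 8 of the 9 Frizzled genes had a mean of at least 10 reads. For 6 of these 8 the FPKM in STZ was below that of both controls. The same held for 32.2% of all 18425 genes, which were taken without that minimum. Summed over the family, the FPKM was 55.3 (Buffer), 61.9 (Saline) and 44.5 (STZ). Fzd5, a receptor of eye field and retinal progenitor cells, was the most abundant in every library, with 45.4%, 47.3% and 47.3% of the sum. It had 842, 981 and 709 reads, with ratios of 0.841 (0.76 to 0.93) against Buffer and 0.721 (0.654 to 0.795) against Saline. The Saline level of Fzd5 was itself above Buffer (1.17, 1.06 to 1.28).

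Fzd3, a receptor known for axon guidance and planar cell polarity, had the largest drop of the 41 genes against Buffer. It had 512, 442 and 252 reads in the same order, and its FPKM was 9.22, 7.97 and 4.53. STZ lay far below both controls, which differed less from each other (0.864, 0.759 to 0.983). The fold was 0.541 against Buffer and 0.616 against Saline, and the read ratios were 0.491 (0.421 to 0.572) and 0.569 (0.485 to 0.665). Within its family Fzd3 ranked 2 in Buffer, 3 in Saline and 4 in STZ, and its share of the summed Frizzled FPKM was 16.7%, 12.9% and 10.2%.

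Fzd1 had 695, 804 and 552 reads, with ratios of 0.793 (0.708 to 0.888) and 0.685 (0.613 to 0.764). For Fzd1 as well, Saline was above Buffer (1.16, 1.04 to 1.28). Fzd6, which acts with Fzd3 in cell polarity, had 202, 281 and 169 reads. Its interval held 1 against Buffer (0.677 to 1.03) but not against Saline (0.6, 0.493 to 0.729), where the Saline level was itself above Buffer (1.39, 1.16 to 1.68). Fzd2 with 257, 292 and 255 reads, Fzd8 with 144, 135 and 152 and Fzd9 with 64, 86 and 67 had intervals that held 1 in all 3 comparisons. The Fzd8 counts are fractional as deposited. Fzd7 had 4, 6 and 4 reads and allowed no comparison. Lrp6, the main co-receptor of canonical Wnt signaling beside Lrp5, had 2983, 2830 and 2390 reads and ratios of 0.800 (0.758 to 0.844) against Buffer and 0.842 (0.798 to 0.890) against Saline.

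**Figure D4:**
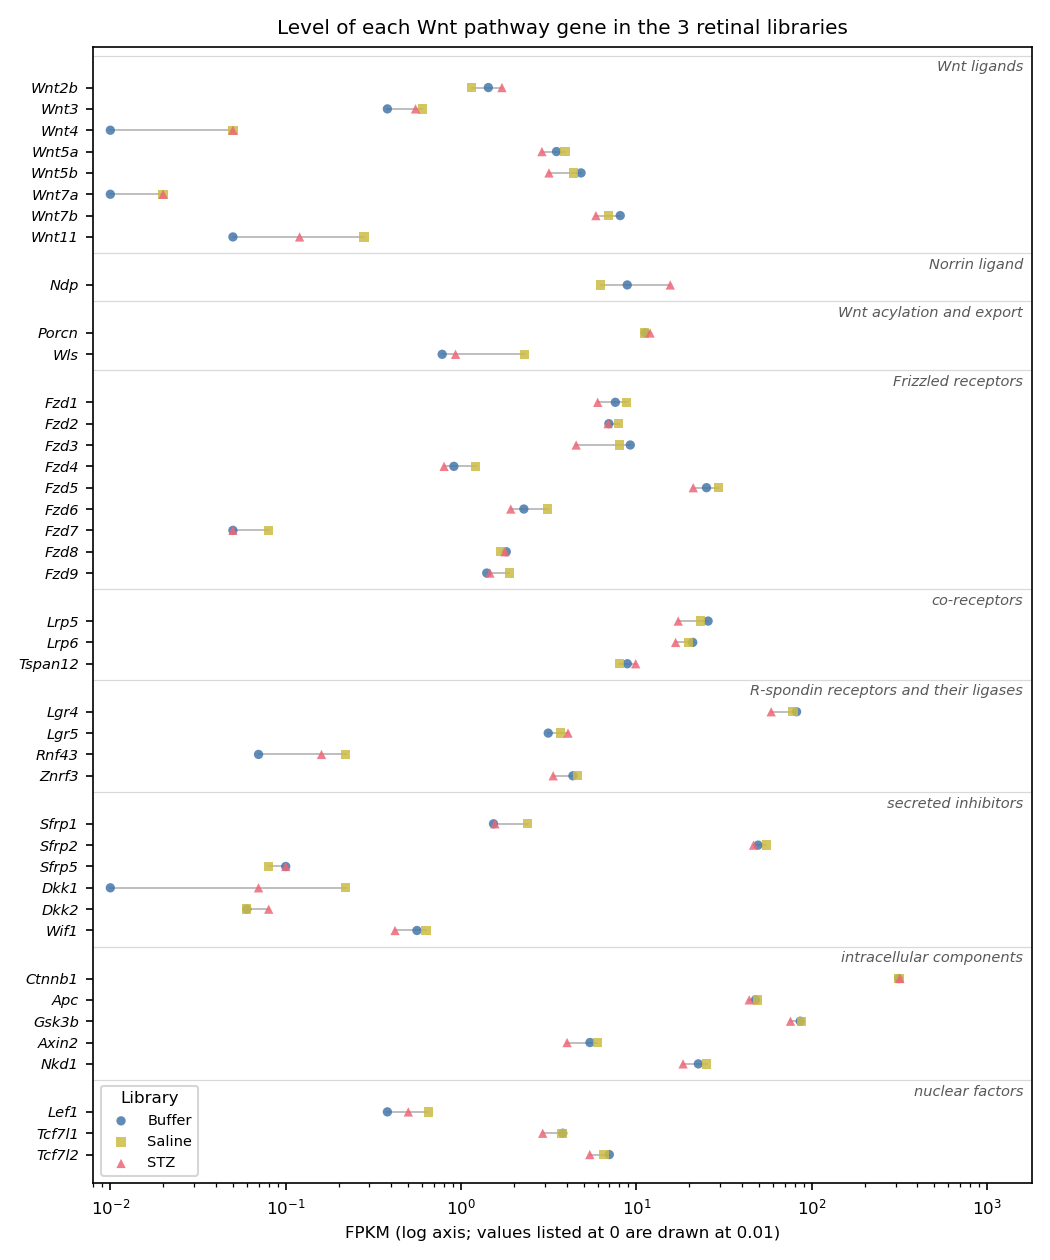
FPKM of the 41 genes in the Buffer (circle), Saline (square) and STZ (triangle) libraries on a log axis, grouped by role, with values listed at 0 drawn at 0.01. Levels run from under 1 in every library for 11 genes to over 300 for Ctnnb1, and the triangle lies left of both other marks for 21 genes.

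The R-spondin receptors went in opposite directions. Lgr4 and Lgr5 bind R-spondins and thereby shield Frizzled receptors from the ubiquitin ligases Znrf3 and Rnf43. Lgr4 was by far the more abundant, with an FPKM of 81.8, 78.2 and 58.6 from 5871, 5606 and 4215 reads. The controls differed by little, at 0.956 (0.921 to 0.991), and STZ was lower than both, at 0.717 (0.689 to 0.746) and 0.75 (0.72 to 0.781). Its folds of 0.720 and 0.753 did not reach 0.65. Lgr5, also a Wnt target, had 263, 307 and 353 reads and was highest in STZ, with a read ratio of 1.34 against Buffer (1.14 to 1.58), while the interval against Saline held 1 (0.982 to 1.34). Znrf3 had 213, 225 and 165 reads, with ratios of 0.773 (0.627 to 0.952) and 0.732 (0.595 to 0.898). Rnf43 was near the limit of detection, with 7, 14 and 12 reads. The 4 R-spondin genes, no members of the list, had an FPKM of at most 1.17.

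Among the listed secreted inhibitors the most abundant was Sfrp2, a Wnt-binding protein made by retinal progenitor cells. Its FPKM was 49.4, 55.0 and 46.5 from 1895, 2107 and 1790 reads. The interval held 1 against Buffer (0.883 to 1.01) and lay below 1 against Saline (0.847, 0.795 to 0.903). The Saline level of Sfrp2 was itself above Buffer (1.11, 1.05 to 1.18). Sfrp1 had 123, 193 and 126 reads and was high in Saline, at 1.57 times Buffer (1.25 to 1.98), while STZ and Buffer did not differ beyond counting error (1.02, 0.791 to 1.32). Wif1, which binds Wnt proteins directly, had 24, 27 and 18 reads with wide intervals that held 1. The remaining listed inhibitors were barely detected, Sfrp5 with 4, 3 and 4 reads, Dkk1 with 0, 6 and 2 and Dkk2 with 4, 4 and 5. Related genes outside the list were more abundant. Dkk3 had an FPKM of 491.28, 507.53 and 391.75, and Frzb had 16.53, 15.81 and 10.91. Dkk4 had 23.57, 23.03 and 29.21, and Sostdc1 had 9.12, 9.98 and 13.71. In both STZ comparisons the read ratio interval lay below 1 for Dkk3 and Frzb and above 1 for Dkk4 and Sostdc1.

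The core of the intracellular machinery differed little. Ctnnb1, which encodes β-catenin, was the most abundant of the 41 genes, with an FPKM of 312.4, 314.3 and 317.4 from 20928, 21387 and 22058 reads. Its folds lay between 1.01 and 1.02, and at this depth even a read ratio of 1.05 against Buffer had an interval above 1 (1.03 to 1.07). Apc, a scaffold of the complex that marks β-catenin for degradation, had 9894, 10150 and 9062 reads and ratios of 0.914 (0.889 to 0.941) and 0.891 (0.866 to 0.916). Gsk3b, the kinase of that complex, had 8834, 8792 and 8403 reads and ratios of 0.95 (0.922 to 0.978) and 0.953 (0.925 to 0.982). Its FPKM of 85.8, 87.3 and 75.6 gave lower folds, 0.882 and 0.867.

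Of the listed targets of β-catenin, Axin2, Nkd1 and Znrf3 had read ratio intervals below 1 in both STZ comparisons. Lgr5 went the other way, and none of these genes passed the threshold. Axin2, a scaffold of the degradation complex and a widely used readout of the pathway, had 345, 380 and 256 reads. The controls differed by less than counting error, and the ratios for STZ were 0.741 (0.628 to 0.873) and 0.672 (0.571 to 0.790). Nkd1, an inhibitor that binds Dishevelled, had 1715, 1943 and 1410 reads, with ratios of 0.821 (0.764 to 0.881) and 0.724 (0.675 to 0.776). The folds of Axin2 were 0.781 and 0.718, those of Nkd1 0.826 and 0.744, and those of Znrf3 0.815 and 0.778. Lgr5 had 263, 307 and 353 reads, and its interval lay above 1 against Buffer (1.14 to 1.58) but held 1 against Saline (0.982 to 1.34). Axin2 and Nkd1 are the 2 genes with the longer Tcf/Lef form in the windows shown above. No window was found for Znrf3 or Lgr5, so whether the form goes with the direction was not tested. For Rnf43 and Lef1, also known targets, the intervals held 1. In Saline, Nkd1 was above Buffer (1.13, 1.06 to 1.21), so its distance to STZ was larger against Saline.

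Of the nuclear factors, Tcf7l2 and Tcf7l1 were both lowest in STZ. Tcf7l2 had 446, 415 and 346 reads, with ratios of 0.774 (0.671 to 0.893) and 0.832 (0.719 to 0.962). Tcf7l1, often a repressor of targets, had 220, 222 and 175 reads, with ratios of 0.794 (0.647 to 0.973) and 0.786 (0.641 to 0.963). Lef1 was weakly expressed, with 23, 33 and 24 reads, and every interval of this gene held 1. The summed FPKM of retinal progenitor markers was lower in STZ as well (1312, 1316 and 1003), and its part in the lower levels of Fzd5, Lgr4, Axin2 and the Tcf genes was not tested.

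The other genes of the pathway were read from a list of 78 further symbols, 77 of which were analysed and 65 of which had a mean of at least 10 reads. No gene of the 77 passed a threshold in STZ against Buffer. Against Saline, Notum and Tcf7 fell and none rose, and in Saline against Buffer Notum rose. Notum, a secreted enzyme that removes the lipid from Wnt proteins and is itself a Wnt target, had 7, 185 and 2 reads. The Saline library stood alone, with a read ratio of 26.4 against Buffer (12.6 to 66.7) and a ratio of STZ to Saline of 0.0108 (0.00130 to 0.0395). It was high in the same library as Aldh1a1, Gja1 and Wfdc1, the 3 of 9 ciliary and iris epithelium markers past the threshold in Saline against Buffer, and their part in it was not tested. Tcf7, a nuclear partner of β-catenin, had 81, 117 and 60 reads, with a fold of 0.644 against Saline and 0.807 against Buffer.

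Across the 77 genes the read ratio interval was below 1 for 20 and above 1 for 16 in STZ against Buffer, 26.0% and 20.8%. Over all genes the shares were 15.5% and 21.7%. Against Saline it was below 1 for 25 and above 1 for 16, 32.5% and 20.8%, beside 19.5% and 22.1% of all genes. The share above 1 was thus near that of all genes in both comparisons. The median log2 fold of the 77 genes was 0.02 and -0.04, beside 0.02 and 0.00 for all genes. The 8 core genes of planar cell polarity, to which Fzd3 and Fzd6 are functionally tied, were divided, with 3 below and 3 above 1 by the interval in each STZ comparison. Below 1 were Celsr1, Celsr2 and Vangl2, and above 1 were Celsr3, Prickle1 and Prickle2. With 8 genes these counts were too few to be read against the shares of all genes. The part of cell types in this division was not tested.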

How the data were processed

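Retinal RNA was measured by RNA sequencing in 3 libraries, 1 per injection. According to the methods of the study and the submitters' processing notes, reads were checked with FastQC, trimmed at the 5′ end and mapped to the rat genome (rn6) with TopHat2, and reads with several locations were discarded. The annotation and the counting tool are not given in the sources used here. The authors deposited an FPKM, a TPM and an estimated count for each gene, and per the methods the FPKM came from a custom R script. Between 12.9% and 13.2% of the deposited estimated counts per library are fractional. Counts were rounded for intervals. The tables per library and the table of the series hold the same values. Of the 41 genes, 38 have whole-number counts.

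Folds were (FPKM + 1)/(FPKM + 1) with thresholds of 1.54 and 0.65, as in the study's methods, and were computed over all 18425 genes. No count model was fitted. Described in full were genes past a threshold with a mean of at least 10 reads and the most and least abundant gene of each role, and the rest by reads. The members and all lists were chosen with earlier results of these data known. Promoter windows are from RefSeq (GRCr8), and rn6 coordinates were not used. Alternatives were a pseudocount of 0.1, a minimum of 10 mean reads, scaling by TMM (edgeR 4.0.16) or median of ratios (DESeq2 1.42.0), the deposited TPM, whole-number counts, the mean of both controls, thresholds of 2 and 0.5, and the counting interval. Functions were tested on simulated data. Python 3.11.15, numpy 2.4.6, pandas 2.3.3, scipy 1.17.1, matplotlib 3.10.9 and R 4.3.3 were used.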

Additional observations from a re-analysis of the deposited data

How the results depend on the processing

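With 1 library per injection no replicate could be left out, and depth limits the genes under 10 reads. Scaling by TMM or median of ratios and the deposited TPM left every count and median within the limits set (1.5 times for a count, 0.1 for a log2 median), and no median changed sign. Adding 0.1 instead of 1 to the FPKM, 2 genes in place of 1 were higher in STZ than in Buffer, 5 in place of 2 were lower than in Saline, and 5 in place of 1 were higher in Saline than in Buffer. With whole-number counts only, which leaves out Ndp, 0 genes were higher in STZ in either comparison. With thresholds of 2 and 0.5, the counts higher and lower in STZ against Buffer became 0 and 0, the count lower against Saline became 0 and the count higher in Saline against Buffer became 0, so Fzd3 and Wls no longer passed, nor did Ndp against Buffer, while Ndp still passed against Saline. The shares of all genes were not computed for these alternatives, so the counts have no background beside them and show only how the list moved. By the counting interval the counts were 3 higher and 16 lower in STZ against Buffer, 3 and 20 against Saline, and 11 and 5 in Saline against Buffer. For the interval the shares of all genes are given above. The median log2 fold in STZ against Buffer moved from -0.02 to -0.13 with the read minimum, through the 7 genes left out, and to -0.16 with the mean of both controls. The folds of Ndp, Fzd3 and Wls past a threshold stayed past it under a pseudocount of 0.1, TMM and TPM.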
